A study of Mus musculus with 15 samples.

Results

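Kruppel-like factors (KLFs) are transcription factors that bind GC boxes and CACCC boxes through C2H2 zinc fingers at their C-terminal end. The family holds both activators and repressors. In the heart Klf15 is known as a regulator of lipid, glucose and amino acid use and as a brake on hypertrophy, Klf2 and Klf4 are known from the endothelium and its response to flow, and Klf4, Klf6 and Klf10 are induced early after growth factor or TGF-beta stimulation. Transcripts of 9 listed KLF genes were looked up by gene name in a table of 9666 genes. Of these, 8 had a row (Klf2, Klf3, Klf4, Klf6, Klf9, Klf10, Klf13 and Klf15), all 8 passed the filter on low values, and Klf7 was not analysed here.

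Wild-type (WT) C57BL/6 mice gave the isolated ventricular cardiomyocytes for all 15 libraries: 7 from adults of 8 to 12 weeks, 4 from postnatal day 1 (P1) and 4 from postnatal day 3 (P3). All animals were untreated as far as the labels tell. The series asks which genes mediate heart muscle regeneration, which neonatal mice can do and adults cannot. The labels do not say that each library came from its own animal, so the p-values measure only the spread between these libraries, which may be technical. Levels are RPKM, that is reads divided by gene length in kilobases and by library reads in units of 1000000, so they can be set side by side between genes. Changes are differences of group means of log2(RPKM + 0.5), a scale that understates the change of low genes. A gene was called when limma's p, adjusted over the 9389 genes tested, was under 0.05 and its change was at least 1.

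The libraries differed in ways that touch every value below. The median tested gene stood 1.45 higher in P1 libraries and 1.55 higher in P3 libraries than in adult ones on the log2 scale, so each change is also given relative to that gene. Summed RPKM of 12 cardiomyocyte markers ran from 17680 to 34500 in adult, 5710 to 13550 in P1 and 686 to 6188 in P3. Of 14 endothelial markers 10 were in the table and summed to 3.22 to 221 RPKM in adult, 216 to 489 in P1 and 728 to 1713 in P3. Of 10 fibroblast markers 5 were in the table and summed to 1.13 to 78.3, 164 to 1408 and 379 to 810 RPKM. Of 8 mural markers 4 were in the table, and these did not move together. Acta2 averaged 27.4 RPKM in adult, 326 in P1 and 495 in P3, and Rgs5 23.7, 4.27 and 8.71. Relative to the median gene 1 mural marker was called higher and 2 lower on each day. Of the immune, erythroid, epicardial, Schwann and neuronal, and adipocyte markers 0 were in the table. In such bulk samples fewer cells of a type and less RNA per cell cannot be told apart. The adult libraries also fall into 2 sets by the read step recovered from their values, replicates 1 to 4 and 5 to 7, which the labels do not mention.

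The promoters of 4 members are printed because these genes carry the contrast described here: Klf15 was the member that fell, Klf6 the one that rose most, and Klf4 and Klf2 share an endothelial role. Each line holds the 250 bases before the RefSeq transcription start (build GRCm38.p6, the assembly behind mm10), and capitals mark E-boxes (CACGTG), GC boxes (GGGCGG) and CACCC boxes (CACCC), read on both strands. RefSeq promoters were matched by symbol for 7 of the 8 members, Klf10 being the one without an entry.
Klf15, chr6:90462326-90462575, plus strand: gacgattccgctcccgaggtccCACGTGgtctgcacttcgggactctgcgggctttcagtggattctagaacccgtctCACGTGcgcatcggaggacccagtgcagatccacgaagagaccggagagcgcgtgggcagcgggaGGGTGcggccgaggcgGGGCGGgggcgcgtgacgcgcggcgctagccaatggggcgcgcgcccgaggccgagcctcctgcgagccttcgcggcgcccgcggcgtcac
Klf6, chr13:5861239-5861488, plus strand: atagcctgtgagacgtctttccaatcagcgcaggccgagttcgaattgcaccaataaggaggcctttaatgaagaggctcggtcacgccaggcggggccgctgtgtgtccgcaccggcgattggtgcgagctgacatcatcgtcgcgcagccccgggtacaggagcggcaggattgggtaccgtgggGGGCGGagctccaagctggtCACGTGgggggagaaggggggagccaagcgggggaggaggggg
Klf4, chr4:55532476-55532725, minus strand: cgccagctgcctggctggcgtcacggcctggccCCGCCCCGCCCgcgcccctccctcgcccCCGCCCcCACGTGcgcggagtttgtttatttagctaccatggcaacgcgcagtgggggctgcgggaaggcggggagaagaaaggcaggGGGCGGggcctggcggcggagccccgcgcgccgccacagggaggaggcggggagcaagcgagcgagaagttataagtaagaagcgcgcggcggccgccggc
Klf2, chr8:72318812-72319061, plus strand: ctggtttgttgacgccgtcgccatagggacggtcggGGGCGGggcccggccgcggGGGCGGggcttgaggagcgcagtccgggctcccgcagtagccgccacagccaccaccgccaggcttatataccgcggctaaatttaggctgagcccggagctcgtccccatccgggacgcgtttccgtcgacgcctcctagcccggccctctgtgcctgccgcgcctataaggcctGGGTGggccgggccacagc

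The Klf15 promoter held 2 E-boxes, the letters read by clock and other basic helix-loop-helix factors, and Klf6 and Klf4 held 1 each. An E-box was present in 6.02% of 32851 RefSeq promoter windows of this length. GC boxes numbered 1 in Klf15, 1 in Klf6, 4 in Klf4 (of which a pair overlap) and 2 in Klf2, and 32.7% of all windows held at least 1. CACCC boxes numbered 1 in Klf15 and 1 in Klf2, with 52.0% of all windows holding one. GC content was 72.0% for Klf15, 64.8% for Klf6, 74.0% for Klf4 and 71.2% for Klf2, against a median of 52.4%. These matches describe letters only.

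**Figure D1:**
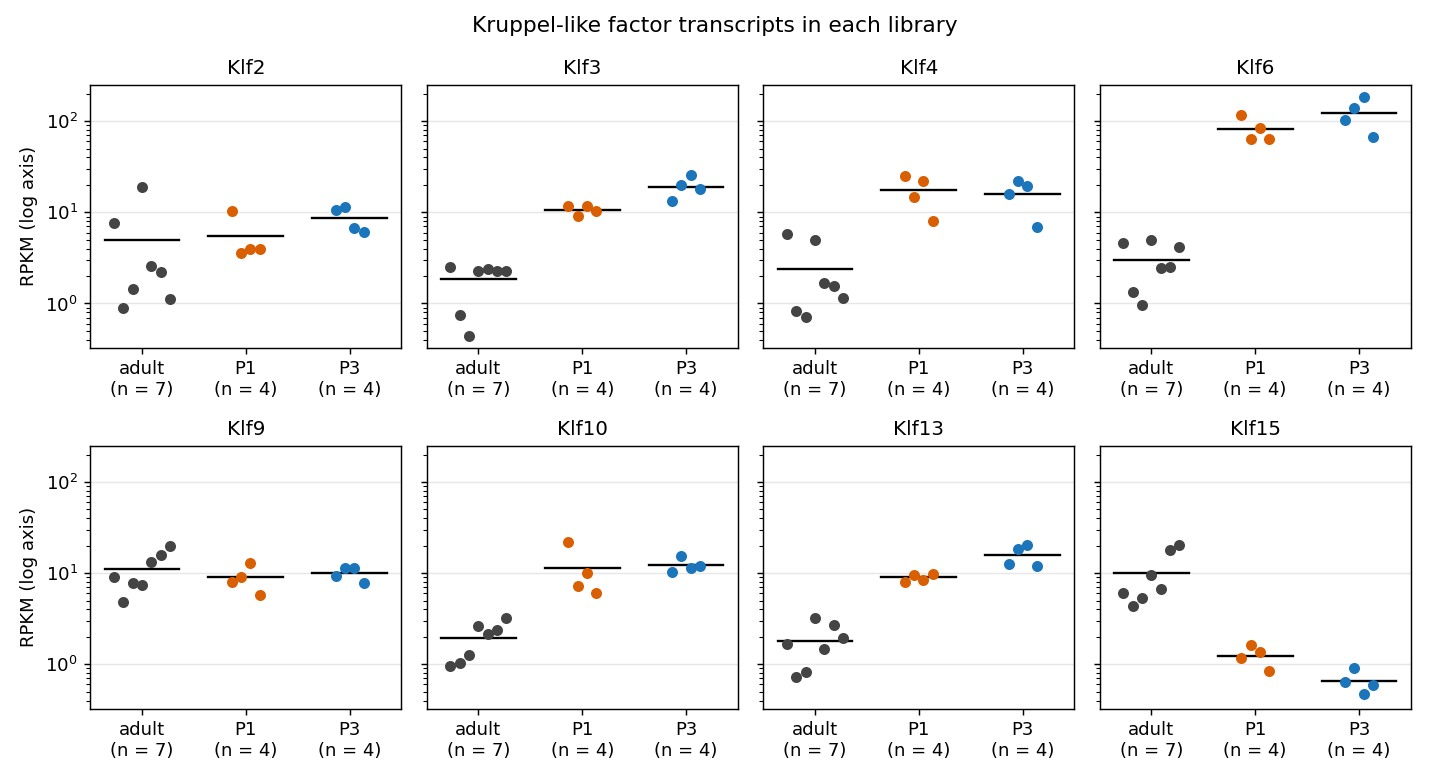
RPKM of the 8 Kruppel-like factors in each of the 15 libraries on a log axis, with 1 point per library and a line at the group mean. Klf15 is lower in all 8 neonatal libraries than in any adult one, Klf6 is higher in all of them, and Klf2 and Klf9 overlap between the groups.

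The mix of KLF transcripts was different in neonatal and adult libraries. Adult libraries were led by Klf9 and Klf15, which together made up 58.4% ± 16.7 (SD, n = 7) of the summed RPKM of the 8 genes, while Klf6 made up 8.06% ± 2.42 (SD, n = 7). In P1 Klf9 and Klf15 together held 7.25% ± 2.29 (SD, n = 4) and Klf6 56.0% ± 2.45 (SD, n = 4), and in P3 these shares were 5.41% ± 0.919 (SD, n = 4) and 58.7% ± 5.79 (SD, n = 4). The Klf6 share was at most 12.2% in any adult library and at least 51.8% in any neonatal one. A share within a library does not depend on how the libraries are scaled, but it shows unequal change and not which gene changed. The log2 ratio of Klf6 to Klf15 went from -1.71 ± 0.87 (SD, n = 7) in adult to 6.03 ± 0.57 (SD, n = 4) in P1 and 7.51 ± 0.77 (SD, n = 4) in P3. Two-sided exact permutation tests gave p = 0.003 for each day against adult, the smallest that 330 splits allow, and p = 0.029 for P3 against P1, the smallest that 70 splits allow. The ratio pairs the member that rose most with the one that fell, chosen after seeing the data. Neither gene overlapped the adult libraries on either day, so the p against adult was fixed in advance and adds no support.

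**Figure D2:**
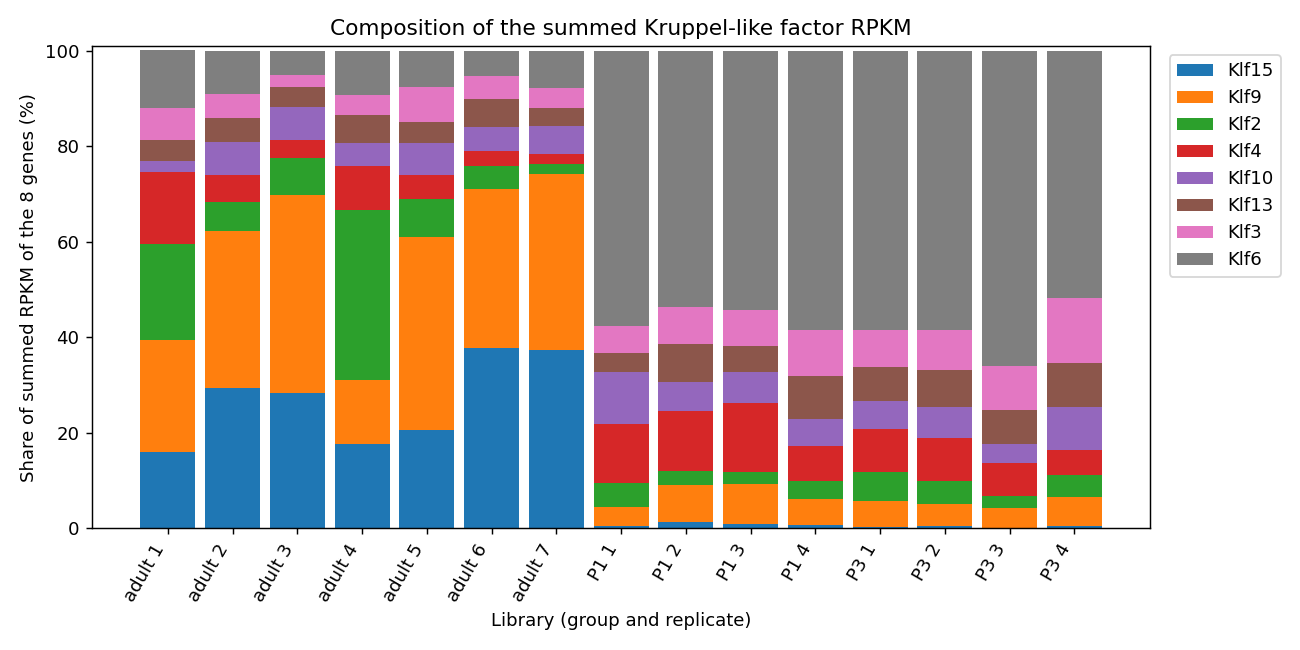
Share (%) of the summed RPKM of the 8 Kruppel-like factors held by each gene, with 1 stacked bar per library. Klf6 takes 51.8% to 66.0% of the sum in the P3 bars and 53.7% to 58.5% in the P1 bars, and Klf15 with Klf9 take 31.1% to 74.1% in the adult bars.

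By level, the order in adult was Klf9 (mean 11.1 RPKM), Klf15 (9.98), Klf2 (5.02), Klf6 (3.02), Klf4 (2.37), Klf10 (1.95), Klf3 (1.84) and Klf13 (1.79), and the ranges of all neighbours in that order overlapped. In P1 it was Klf6 (82.0 RPKM), Klf4 (17.5), Klf10 (11.3), Klf3 (10.6), Klf13 (8.98), Klf9 (8.97), Klf2 (5.44) and Klf15 (1.25). In P3 it was Klf6 (124 RPKM), Klf3 (19.2), Klf4 (16.1), Klf13 (15.8), Klf10 (12.2), Klf9 (10.1), Klf2 (8.69) and Klf15 (0.657). On both neonatal days Klf6 stood above the range of its neighbour and Klf15 below that of its neighbour, and the ranges of the neighbours between them overlapped. Among all tested genes Klf15 moved from percentile 78.0 of mean RPKM in adult to 3.94 in P1 and 1.76 in P3, and Klf6 from 49.3 to 93.5 and 96.2. Klf9 went from 79.7 to 49.5 and 50.5 in the same ranking, although its RPKM ranges overlapped.

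Against adult, limma called 5 of the 8 members higher (Klf3, Klf4, Klf6, Klf10 and Klf13) and 1 lower (Klf15) in P1, beside 62.7% (higher) and 4.32% (lower) of all genes tested, or 67% in all. In P3 the same 5 and Klf2 were called higher and Klf15 lower, beside 62.7% and 9.16% of all genes tested, or 71.9% in all. The number of members called higher is therefore near the background on the deposited scale. After centring on the median gene 2 members were called higher (Klf4 and Klf6) and 2 lower (Klf9 and Klf15) in P1, where 13.7% of all genes were called higher and 21.6% lower, or 35.3% in all. On that scale 4 were called higher (Klf3, Klf4, Klf6 and Klf13) and 2 lower (Klf9 and Klf15) in P3, where the background was 19.1% and 27.1%, or 46.3% in all. Libraries of the groups did not overlap for 5 members higher and 1 lower on each day, beside 65.1% and 4.86% of all genes in P1 and 64.3% and 7.99% in P3. After centring they did not overlap for 3 higher and 2 lower in P1 (20.6% and 28.1% of all genes) and 4 higher and 2 lower in P3 (25.2% and 31.7%). The P1 and P3 comparisons share the adult libraries, so they are not separate evidence.

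**Figure D3:**
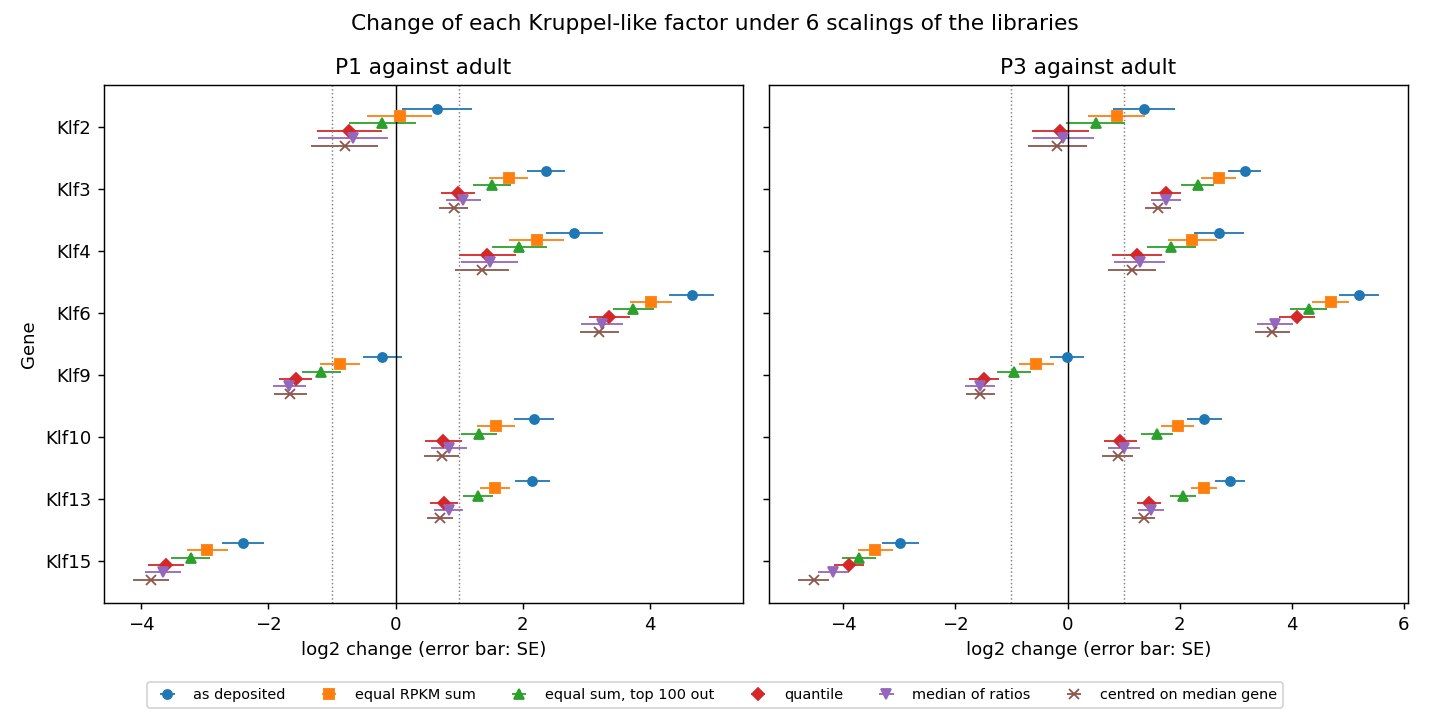
log2 change of each member against adult in P1 (left) and P3 (right) under 6 scalings of the libraries, with error bars of 1 SE from limma and dotted lines at changes of -1 and 1. Klf6 stays above 1 and Klf15 below -1 under all 6, and Klf2 lies on both sides of 0.

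Klf15, the metabolic regulator, was the member called lower. Adult libraries held 4.33 to 20.1 RPKM (median 6.73, n = 7), with the highest values in replicates 6 and 7 (17.9 and 20.1). P1 libraries held 1.16, 1.61, 1.36 and 0.852 RPKM in replicates 1 to 4, and P3 libraries held 0.641, 0.921, 0.471 and 0.595. Every neonatal library lay below every adult one. The change was -2.39 in P1 (SE 0.33, adjusted p = 2.36e-06) and -2.98 in P3 (SE 0.33, adjusted p = 1.18e-07), and relative to the median gene it was -3.85 and -4.53 (adjusted p = 7.73e-09 and 5.41e-10). Exact permutation gave p = 0.003 in each case. Neonatal values rest on few reads, 22 to 39 in P1 and 13 to 20 in P3 against 110 to 790 in adult, so small differences between neonatal libraries were not detectable at this depth.

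Cardiomyocyte markers fell beside Klf15 between the groups, and more so in P3. Within P1 they did not pair: replicate 4 had the highest marker sum (13550 RPKM) and the lowest Klf15 (0.852 RPKM). Set against the mean log2 level of the 12 cardiomyocyte markers in the same library, Klf15 was 1.49 below adult in P1 (-1.49, exact permutation p = 0.0061) and 0.39 above it in P3 (exact permutation p = 0.43). In P1 Klf15 thus fell further than the marker median of -1.01. In P3 its fall was not told apart by group mean from that of the markers, whose median change was -3.57. The P3 libraries disagreed: Klf15 minus markers ran from -7.18 to -4.73, beyond the adult range of -6.57 to -5.20 at both ends. The marker mean was 7.37 in P3 replicate 1 and 4.86 to 5.48 in replicates 2 to 4, while Klf15 was 0.641 and 0.471 to 0.921 RPKM. These P3 values of Klf15 lie near the pseudocount of 0.5, which sets much of its P3 difference from the markers. With a pseudocount of 0.1 the P3 change of Klf15 was -3.54, and with 1 it was -2.545. Among the markers of this list 6 were called lower and 1 higher in P1, and 11 lower in P3. Against adult replicates 1 to 4 Klf15 changed by -1.93 in P1 and -2.52 in P3, and against replicates 5 to 7 by -3.02 and -3.61.

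Of 20 muscle genes linked to Klf15 in the literature, 18 were in the table, 10 were called lower in P1 and 17 in P3, beside 4.32% and 9.16% of all genes, and 0 were called higher. Their median change was -1.42 in P1 and -2.37 in P3, where the median over all tested genes was 1.36 and 1.48. Slc2a4, the insulin-responsive glucose transporter, averaged 55.7 RPKM in adult, 8.05 in P1 and 2.64 in P3, and changed by -2.76 on the first day and -4.41 on the other. Gpt, the alanine aminotransferase, changed by -2.79 in P1, and Cd36, a fatty acid transporter, by -2.39. Fabp3, the heart fatty acid-binding protein, changed by -4.31 in P3 and Acadm, a fatty acid oxidation enzyme, by -3.80. Whether the fewer cardiomyocyte marker transcripts have a part in these falls was not tested.

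Klf9, a glucocorticoid-responsive repressor, overlapped between the groups in RPKM but ranked lower among all genes in neonates. Adult libraries held 4.84 to 19.7 RPKM (median 8.98, n = 7), highest in replicates 5 to 7 at 13.2 to 19.7. P1 libraries held 8.05, 9.16, 12.9 and 5.82 RPKM, and P3 libraries held 9.36, 11.5, 11.5 and 7.86, all inside the adult range. The change was -0.21 in P1 (SE 0.30, adjusted p = 0.53) and -0.01 in P3 (SE 0.30, adjusted p = 0.97). Relative to the median gene it was -1.66 in P1 (adjusted p = 3.1e-05) and -1.56 in P3 (adjusted p = 3.8e-05), with every neonatal library below every adult one. Its sign on the deposited scale followed the adult set, at 0.27 and 0.47 against replicates 1 to 4 and -0.85 and -0.66 against replicates 5 to 7.

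Relative to Klf15, Klf9 stood higher in neonates. Their log2 ratio was 0.24 ± 0.48 (SD, n = 7) in adult, 2.83 ± 0.31 (SD, n = 4) in P1 and 3.96 ± 0.45 (SD, n = 4) in P3 (exact permutation p = 0.003 for each day against adult). Klf9 itself changed by -0.21 in P1 and -0.01 in P3, so the ratio mostly restates the fall of Klf15. The pair was chosen after seeing that fall, so this p adds little support. Both genes are known to be induced by glucocorticoids. Of 17 listed glucocorticoid-induced genes and receptors 13 were tested, of which 5 were called higher in P1 and 0 lower, and 8 higher and 1 lower in P3. Of all tested genes 62.7% were called higher on each day, and 4.32% in P1 and 9.16% in P3 lower. The list had a median change of 0.93 in P1 and 1.39 in P3, below the median over all tested genes. After centring 2 were higher and 4 lower in P1 (13.7% and 21.6% of all genes), and 3 higher and 3 lower in P3 (19.1% and 27.1%). Sgk1, a kinase of this list, averaged 2.85 RPKM in adult, 55.2 in P1 and 130 in P3, and Errfi1, an EGF receptor inhibitor, 1.17, 62.3 and 63.1. Tsc22d3, also known as GILZ, averaged 9.41, 8.89 and 8.53 RPKM.

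Klf6, an early-response activator, was the member that rose most. Adult libraries held 0.968 to 4.95 RPKM (median 2.53, n = 7), P1 libraries 117, 63.9, 83.5 and 63.3, and P3 libraries 102, 141, 185 and 67.8. The lowest neonatal library stood far above the highest adult one. The change was 4.65 in P1 (SE 0.35, adjusted p = 1.57e-09) and 5.20 in P3 (SE 0.35, adjusted p = 2.26e-10), and relative to the median gene it was 3.20 and 3.65 (adjusted p = 1.49e-07 and 1.45e-08). Exact permutation gave p = 0.003 for each. Against the endothelial markers of the same library Klf6 differed by 2.06 at P1 (p = 0.033, exact permutation) and by 0.87 at P3 (p = 0.32, exact permutation). Against the fibroblast markers it differed by 1.02 at P1 (p = 0.22, exact permutation) and by 0.85 at P3 (p = 0.27, exact permutation).

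Klf6 is itself an early-response gene, so immediate-early genes, which answer stimuli within minutes to hours, are given beside it. Of 20 listed 17 were tested, and 10 were called higher in P1 and 13 in P3 on the deposited scale, with 0 lower, beside 62.7% of all genes on each day. Their median changes were 2.51 and 2.03. After centring 8 were higher and 2 lower in P1 (13.7% and 21.6% of all genes), and 5 higher and 3 lower in P3 (19.1% and 27.1%). Myc, a growth regulator, averaged 0.723 RPKM in adult, 42.7 in P1 and 56.2 in P3, and Maff, a small Maf factor, 0.774, 21.8 and 36.8. Fos, an AP-1 subunit, had means of 34, 14.5 and 14.9 RPKM. Summed RPKM of the list was 59.3 to 557 in adult, 787 to 1144 in P1 and 654 to 1869 in P3. Among the P3 libraries, replicate 3 was highest in both Klf6 (185 RPKM) and this sum (1869), and replicate 4 lowest in both (67.8 and 654). In adult the 2 did not pair in this way: Klf6 was highest in replicate 4 (4.95 RPKM) and the sum in replicate 7 (557). In P1 replicate 1 was highest in both (117 and 1144). The lowest P1 values were near ties: Klf6 was 63.3 in replicate 4 and 63.9 in replicate 2. The P1 sum was 787 in replicate 3 and 790 in replicate 4. The relation of Klf6 to this sum was not tested.

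Klf4, an early-response and endothelial factor, was also higher in neonatal libraries. Adult libraries held 0.704 to 5.72 RPKM (median 1.57, n = 7), highest in replicates 1 and 4 (5.72 and 4.97). P1 libraries held 24.8, 14.9, 22.2 and 7.97 RPKM and P3 libraries 15.9, 21.9, 19.7 and 6.86, with replicate 4 lowest on both days. No neonatal library overlapped an adult one. The change was 2.81 in P1 (SE 0.45, adjusted p = 1.13e-05) and 2.70 in P3 (SE 0.45, adjusted p = 1.65e-05). Centred on the median gene it was 1.36 (adjusted p = 0.0095) and 1.15 (adjusted p = 0.021), where the groups overlapped, and against adult replicates 1 to 4 alone on that scale the calls ended at 1.02 (adjusted p = 0.081) and 0.81 (adjusted p = 0.15).

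Klf2, the flow-induced endothelial factor, had the widest spread of the members among adult libraries (coefficient of variation 133%), but not in P1, where that of Klf10 was wider (65.1% against 59.3%), nor in P3, where Klf4 and Klf6 were wider (41.2% and 40.7% against 31.2%). Adult libraries held 7.68, 0.894, 1.46, 19.2, 2.60, 2.20 and 1.12 RPKM in replicates 1 to 7. P1 libraries held 10.3, 3.55, 3.97 and 3.96, and P3 libraries 10.6, 11.4, 6.73 and 6.02. Adult replicate 4 was the highest of all 15 libraries, and both neonatal groups overlapped the adult one. The change was 0.65 in P1 (SE 0.55, adjusted p = 0.28), which was not called, and 1.36 in P3 (SE 0.55, adjusted p = 0.029), which was called although the exact permutation p was 0.091. With centring on the median gene the sign turned, to -0.80 (adjusted p = 0.19) and -0.19 (adjusted p = 0.76). The P3 call also ended against adult replicates 1 to 4 (0.95, adjusted p = 0.18) and when adult replicate 2, 3 or 7 or P3 replicate 1 or 2 was left out (1.14 to 1.25), while without adult replicate 4 Klf2 was called in P1 as well (1.07, adjusted p = 0.023).

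Within the adult group, Klf2 and Klf4 were highest in replicates 1 and 4, the 2 adult libraries with the highest endothelial and fibroblast marker levels. This was not particular to them, as Klf6 was highest there too (4.66 and 4.95 RPKM, against 0.968 to 4.20 in the other 5). Summed endothelial markers were 114 and 221 RPKM in those libraries and 3.22 to 64.4 in the other 5, and fibroblast markers were 54.6 and 78.3 against 1.13 to 14.9. The neonatal groups did not pair in this way. Summed endothelial markers were highest in replicate 4 of P1 (489 RPKM) and of P3 (1713 RPKM), where Klf4 was lowest on each day (7.97 and 6.86 RPKM). Klf2 was 3.96 RPKM in that P1 library and 6.02 RPKM, its lowest P3 value, in that P3 library. Set against the endothelial markers of the same library, Klf2 stood at -1.95 in P1 relative to adult and at -2.97 in P3, each with p = 0.003 by exact permutation. For Klf4 the same difference was 0.22 in P1 (exact permutation p = 0.73) and -1.64 in P3 (exact permutation p = 0.018). Endothelial markers thus rose further than Klf2 on both days. The part of endothelial RNA in the Klf2 and Klf4 levels was not tested. The log2 ratio of Klf4 to Klf2 was -0.66 ± 0.67 (SD, n = 7) in adult, 1.71 ± 0.69 (SD, n = 4) in P1 and 0.81 ± 0.58 (SD, n = 4) in P3. It was higher on each neonatal day than in adult (exact permutation p = 0.003), and the days did not differ beyond their spread (-0.89, exact permutation p = 0.11).

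**Figure D4:**
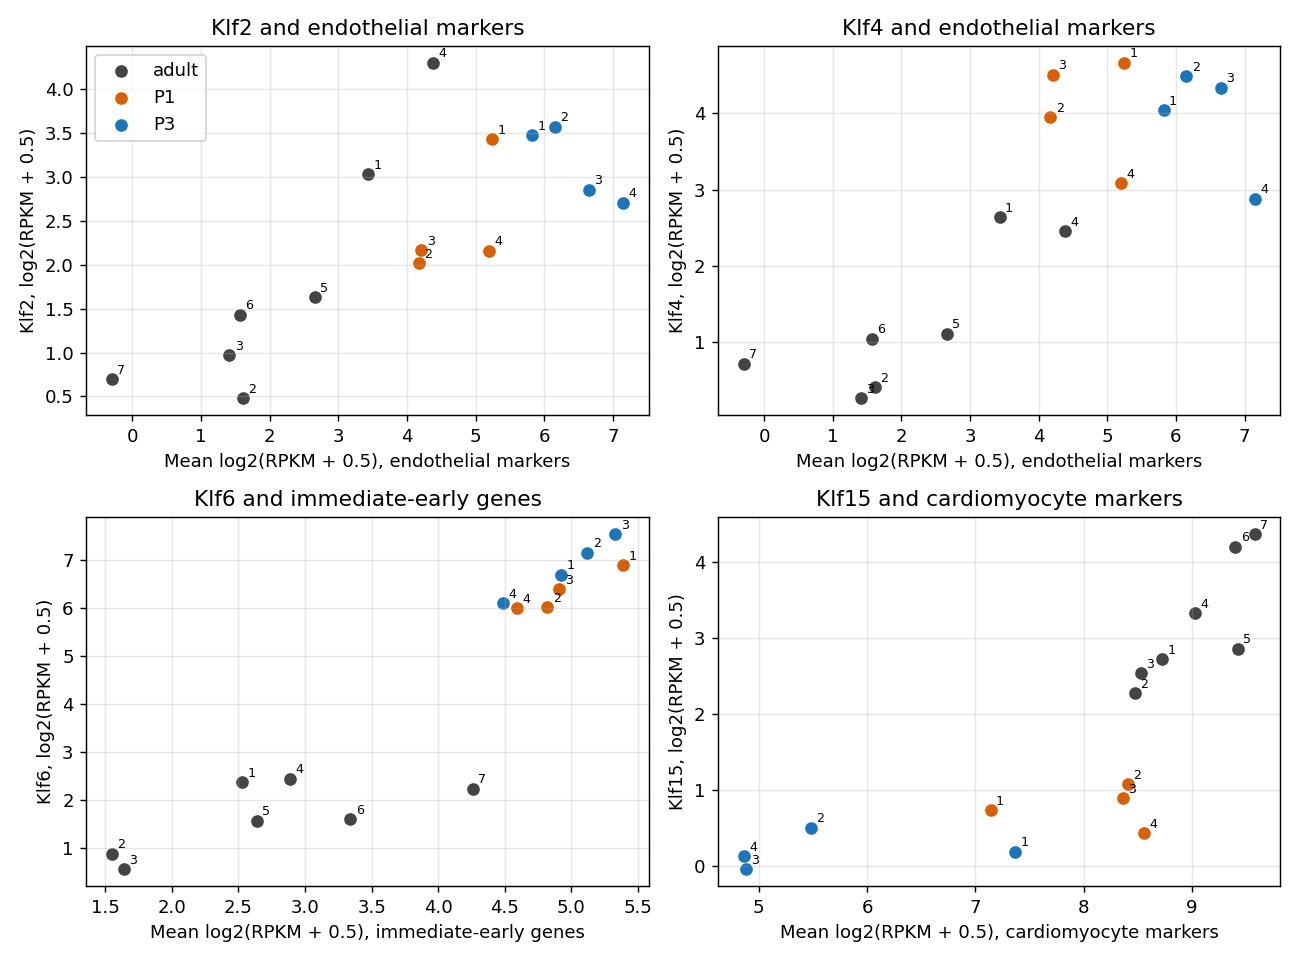
log2(RPKM + 0.5) of 4 members against the mean log2 level of a gene list in the same library, with 1 point per library, numbered by replicate. Adult replicates 1 and 4 lie highest among adults for Klf2 and for endothelial markers, and P3 replicates 2 to 4 lie lowest in cardiomyocyte markers while their Klf15 level is close to that of P3 replicate 1. P3 replicate 4 lies highest in endothelial markers and lowest among P3 libraries in Klf2 and Klf4.

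Of 16 endothelial genes linked to Klf2 and Klf4, 9 were tested, of which 6 were called higher and 1 lower in P1, and 7 higher and 1 lower in P3, with medians of 2.48 and 3.94, beside 62.7% of all genes called higher on each day. After centring 2 were higher and 2 lower in P1 (13.7% and 21.6% of all genes), and 6 higher and 1 lower in P3 (19.1% and 27.1%). Eng, a TGF-beta co-receptor, averaged 6.02 RPKM in adult, 90.3 in P1 and 262 in P3, and S1pr1, a sphingosine 1-phosphate receptor, 5.26, 57.0 and 91.8. Eng, Pecam1 and Cdh5 stand on the endothelial marker list as well. Of 18 genes of the MEK5-ERK5-MEF2 route and the CCM complex, which lie upstream of both factors, 15 were tested, 10 were called higher in P1 and 12 in P3, and 0 were lower. Heg1, the receptor of the CCM complex, averaged 2.63, 21.2 and 60.5 RPKM. Hdac7, a class IIa histone deacetylase that represses MEF2, averaged 1.32, 10.3 and 23.7 RPKM. The shares called higher, 10 of 15 and 12 of 15, stand beside a background of 62.7% in each comparison. With centring 2 were higher and 1 lower in P1 (13.7% and 21.6% of all genes), and 5 higher and 3 lower in P3 (19.1% and 27.1%).

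Klf3, a repressor that recruits CtBP, was low in adult libraries and higher in neonatal ones. Adult libraries held 0.441 to 2.51 RPKM (median 2.27, n = 7), with replicates 2 and 3 lowest. P1 libraries held 11.6, 9.10, 11.6 and 10.4 RPKM and P3 libraries 13.4, 19.9, 25.6 and 17.9, so that the 3 groups did not overlap. The change was 2.37 in P1 (SE 0.30, adjusted p = 6.96e-07) and 3.16 in P3 (SE 0.30, adjusted p = 1.26e-08), and relative to the median gene 0.92 (adjusted p = 0.0022), under the fold threshold, and 1.61 (adjusted p = 7.06e-06). The lowest adult value rested on 10 reads by the recovered step or 49 by the gene length, and which holds is uncertain.

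Klf13, a close relative of Klf9 known from heart development, had a profile much like that of Klf3. Adult libraries held 0.719 to 3.21 RPKM (median 1.65, n = 7), P1 libraries 8.00, 9.64, 8.47 and 9.82, and P3 libraries 12.5, 18.6, 20.1 and 12.0, again with no overlap between the 3 groups. The change was 2.15 in P1 (SE 0.27, adjusted p = 7e-07) and 2.90 in P3 (SE 0.27, adjusted p = 1.12e-08), and relative to the median gene 0.70 (adjusted p = 0.0065), under the fold threshold, and 1.36 (adjusted p = 1.38e-05). Klf3 and Klf13 had the most similar profiles of the 28 pairs of members, with a root mean square difference of 0.33 on the log2 scale over the 15 libraries. Their log2 ratio was -0.01 ± 0.57 (SD, n = 7) in adult, 0.24 ± 0.29 (SD, n = 4) in P1 and 0.28 ± 0.23 (SD, n = 4) in P3, and exact permutation gave p = 0.42 and 0.36 against adult.

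Klf10, the TGF-beta inducible early gene, rose on both days. Adult libraries held 0.960 to 3.22 RPKM (median 2.17, n = 7), P1 libraries 22.1, 7.18, 9.97 and 6.05, and P3 libraries 10.2, 15.4, 11.3 and 11.9, with P1 replicate 1 highest of all. The change was 2.18 in P1 (SE 0.31, adjusted p = 3.77e-06) and 2.44 in P3 (SE 0.31, adjusted p = 7.63e-07). After centring it was under the fold threshold in both, at 0.72 (adjusted p = 0.029) and 0.90 (adjusted p = 0.0078). P1 replicate 1 was also the P1 library with the highest fibroblast markers, 1408 RPKM against 164 to 200 in the other 3. Without that library the P1 change of Klf10 was 1.81.

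All 15 tested genes of the TGF-beta list were called higher in P1 and in P3, with medians of 2.39 and 3.14. Called higher were 62.7% of all tested genes in each comparison. Smad7, the inhibitory SMAD, averaged 0.678 RPKM in adult, 14.1 in P1 and 20.2 in P3, and Tgfb2, a ligand, 0.226, 17.5 and 11. After centring 7 of the 15 were called higher in P1 and 12 in P3 (13.7% and 19.1% of all genes), and 0 lower. Fibroblast and endothelial markers rose with this list, and their part in it was not tested.

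Clock genes were examined because Klf9, Klf10 and Klf15 are known to be clock-controlled. Of 15 tested 6 were called higher in P1 and 0 lower, and 7 higher and 2 lower in P3. Beside this, 62.7% of all tested genes were called higher on each day, and 4.32% in P1 and 9.16% in P3 lower. The clock list had medians of 0.90 on each day, below that of all tested genes. After centring 2 were higher and 5 lower in P1 (13.7% and 21.6% of all genes), and 3 higher and 5 lower in P3 (19.1% and 27.1%). Cry1, a clock repressor, averaged 0.987 RPKM in adult, 8.81 in P1 and 9.68 in P3, and Nfil3, a repressor of the clock output, 2.07, 23.2 and 16.1. Arntl, the clock activator that reads E-boxes, averaged 1.17, 4.44 and 9.55 RPKM.

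A list of KLF corepressors and coactivators, which also holds the ubiquitin ligase genes Wwp1 and Fbxw7, had 15 genes tested. On the deposited scale 12 of the 15 were called higher in P1 and 12 in P3, with 0 lower, beside 62.7% of all genes on each day. After centring 4 were higher and 3 lower in P1 (13.7% and 21.6% of all genes), and 6 higher and 3 lower in P3 (19.1% and 27.1%). Hdac1, a histone deacetylase, averaged 2.56 RPKM in adult, 23.7 in P1 and 31.7 in P3, Ctbp2, the Klf3 corepressor, 1.03, 8.19 and 10.9, and Crebbp, an acetyltransferase coactivator, 0.795, 5.32 and 7.98. Of the other KLF and SP genes 6 of 18 were in the table. On each day 4 of these were called higher and 0 lower, near the background of 62.7%. With centring 1 was higher and 1 lower on each day, beside the same centred shares of all genes. Sp1, which shares the GC box with the KLFs, averaged 1.53, 10.2 and 15.3 RPKM, Sp3 4.24, 16.0 and 21.2, and Klf11, the paralog of Klf10, 0.936, 5.72 and 5.18. Klf12, a repressor, stood at 0.957, 0.589 and 0.933 RPKM and was not called.

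Between the neonatal days limma called 0 of the 8 members, beside 1.4% (higher) and 5.31% (lower) of all genes tested, or 6.71% in all. After centring 0 were called as well, beside 1.18% higher and 7.54% lower, or 8.72% in all. An unadjusted p under 0.05 was found for 2 of the 8, beside 27.5% of all genes tested. These were Klf13, 0.75 higher in P3 (SE 0.31, unadjusted p = 0.025, adjusted p = 0.12), and Klf3, 0.79 higher (SE 0.34, unadjusted p = 0.03, adjusted p = 0.14). Every P3 library was above every P1 library for both (exact permutation p = 0.029 each, the smallest that 70 splits allow), as for 10.7% of all tested genes and, after centring, 4.91%. Klf15 was lower by 0.59 (a change of -0.59, SE 0.38, adjusted p = 0.32). After centring the Klf15 difference was -0.68 with no overlap of the libraries (exact permutation p = 0.029, limma adjusted p = 0.15), as for 5.51% of all tested genes in that direction. Klf6 differed by 0.55 (adjusted p = 0.39) and Klf4 by -0.12 (adjusted p = 0.90).

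Genes with the most similar profile over the 15 libraries were sought among 9089 tested genes with settled names, by the root mean square difference of log2 values after each gene was centred on its own mean. Klf3 lay closest to Cdc42bpb (0.21), a kinase of the actin cytoskeleton, and Klf13 to Ccdc9 (0.24). Klf10 lay closest to Nasp (0.24), a histone chaperone, and Klf9 to Ulk1 (0.28), an autophagy kinase. Klf6 lay closest to Maff (0.39) and to Actb (0.39), the cytoplasmic actin, and Klf15 to Fbxo31 (0.40), an F-box protein, and Art5 (0.40). Klf4 lay closest to Ephx1 (0.49), an epoxide hydrolase, and Klf2 to Rarg (0.56), a retinoic acid receptor, the loosest match of the 8.

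By position in the mouse genome (mm10, GENCODE), Klf15 lies on chromosome 6 from 90462576 to 90475238 on the plus strand, Klf6 on chromosome 13 from 5861482 to 5870394 on the plus strand, and Klf9 on chromosome 19 from 23141226 to 23168134 on the plus strand. Klf4 lies on chromosome 4 from 55527143 to 55532466 on the minus strand, Klf2 on chromosome 8 from 72319033 to 72321656 on the plus strand, and Klf10 on chromosome 15 from 38291463 to 38300706 on the minus strand. Klf3 lies on chromosome 5 from 64803388 to 64832901 on the plus strand and Klf13 on chromosome 7 from 63886351 to 63938915 on the minus strand. All 8 are protein-coding. Klf3 and Klf13 each overlap annotated transcripts on the opposite strand, and Klf3 (C230096K16Rik) and Klf9 (Mir1192) each overlap one on the same strand, which no strand setting would separate. With the strand of counting not given in the sources used here, the share of reads from these transcripts is uncertain.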

How the data were processed

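Per the labels' protocols, total RNA was taken up in TRIzol and libraries came from Illumina TrueSeq RNA kits. The authors deposited RPKM for 15 libraries in 1 table. Tools named by the submitters' processing notes are HISAT2 and Partek 6.6, with build mm10. No annotation, counting option or strand setting is named in the sources used here. The lowest RPKM in the table is 0.1001, so genes under about 0.1 in any library are not analysed here.

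RPKM values step in whole reads: reads were recovered for 8432 of 9666 genes (87.2%, relative tolerance 3e-05; 0% after a random change of 1 percent). With GENCODE lengths the RPKM denominator was estimated at 6.27 to 17.1, in units of 1000000 reads. Klf6 had no recovered reads. The least different pair of replicates, adult 2 and 3, had a chi-square of 2.45 per degree of freedom, above counting noise.

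The filter kept a gene that reached 1 RPKM in 4 or more libraries. limma 3.58.1 (R 4.3.3; 1 coefficient per group, eBayes with trend) was then run on values of log2(RPKM + 0.5), and the script was tested on simulated data. Tests are two-sided. Levels relative to the median gene were fitted the same way after each library was centred. Exact permutation tests (48 over members, comparisons and both scales, unadjusted, besides those of ratios and marker differences) are exhaustive. The comparisons with marker lists, the ratios and the shares were chosen after seeing the data.

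The 9 members, the gene lists and the tests were chosen with earlier results of these data known. All 8 members with a row are reported; from each list, genes named are among the 3 largest called changes per comparison or, where fewer were called, the first 2 in list order, and each member has up to 2 genes of most similar profile. Gene lists were written from textbook knowledge. Alternatives were 2 pseudocounts (0.1 and 1), no filter, a filter at 5 RPKM, 5 scalings, limma without trend, a fit of only 2 groups, a replicate block, each adult set alone and each library left out.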

Additional observations from a re-analysis of the deposited data

Results flagged for a closer look

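In 24 combinations of member and group, 2 held a library far from the others by Dixon's criterion. Chance would do this in about 1 of 20 were the values normally distributed. The criterion was applied to RPKM and not to log2 values, so a flag can come from the scale. Klf2 in adult replicate 4 stood at 19.2 RPKM, against 0.894 to 7.68 in the other 6 adult libraries. On the log2(RPKM + 0.5) scale that library stood at 4.30, against 0.48 to 3.03. Klf2 in P1 replicate 1 stood at 10.3 RPKM, against 3.55 to 3.97 in the other 3. Adult replicate 4 had the highest summed endothelial markers among adults (221 RPKM), and P1 replicate 1 had the highest summed fibroblast markers of all 15 libraries (1408 RPKM). By summed endothelial markers P1 replicate 1 (453 RPKM) stood below P1 replicate 4 (489 RPKM), where Klf2 was 3.96 RPKM. The part of endothelial or fibroblast cells in the Klf2 values was not tested.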

How the results depend on the processing

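Klf3, Klf4, Klf6, Klf10 and Klf13 kept a positive and Klf15 a negative change against adult on both days under every alternative run, though of these Klf6 and Klf15 alone were called in all of them on both days. The number of members called moved with the scaling. With quantile normalization and with centring on the median gene, 2 members were called higher and 2 lower in P1, and 4 higher and 2 lower in P3, against 5 and 1, and 6 and 1, as deposited. With median-of-ratios scaling the P1 counts were 3 and 2, and 2 were lower in P3; without the 100 highest genes 2 were lower in P1. Centring with either adult set alone, chosen after seeing the data, also gave 2 and 2 in P1 and 2 lower in P3. Leaving out 1 library gave 5 to 6 members higher on each day, 1 lower, and 0 called between the days. Calls over all 9389 tested genes moved with the scaling too. In P1, 5887 were higher and 406 lower as deposited, against 1639 and 1697 with quantile values. Median-of-ratios values gave 1562 and 1856 in P1, and centring 1282 and 2032. In P3 the counts were 5891 and 860 as deposited and 2342 and 2174 with quantile values. Median-of-ratios values gave 2141 and 2335 in P3, and centring 1797 and 2547. Without the 100 highest genes 1148 were lower in P1.

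The sign of Klf2 turned in P1 under quantile values (-0.73), median-of-ratios values (-0.67), an equal sum without the 100 highest genes (-0.21) and centring (-0.80; -1.34 and -0.088 with adult replicates 1 to 4 and 5 to 7), and in P3 with quantile values (-0.13), median-of-ratios values (-0.074) and centring (-0.19; -0.72 with adult replicates 1 to 4). Klf9 turned to 0.27 in P1 and 0.47 in P3 with adult replicates 1 to 4 alone, and lay between -0.18 and 0.14 in P3 when 1 library was left out. Klf4 in P3 against P1 was 0.0103 with an equal RPKM sum and -0.437 to 0.24 when 1 library was left out. The cause of these turns was not tested.

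Over all tested genes, 93.5% of calls in P1 and 87.3% in P3 were rises as deposited, against 49.1% and 51.9% for quantile values, 45.7% and 47.8% for median-of-ratios values, 38.7% and 41.4% with centring, 81.9% and 79.1% with an equal sum, and 71.7% and 69.2% without the 100 highest genes.

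The labels give the groups the same replicate numbers but do not say what a number stands for. Correlations of same-numbered deviations ran from -0.51 to 0.37. In P1 against adult 5 of 8 libraries correlated best with their own number, in P3 against adult 0 and in P3 against P1 2. Whether same-numbered libraries share a factor is therefore unknown. With the replicate block, which leaves adult replicates 5 to 7 out, 5 members were called higher and 1 lower on each day, Klf2 in P3 was 0.95 (adjusted p = 0.14) and Klf9 was 0.27 and 0.47. Between the days, 20.8% of calls over all tested genes were rises, against 55.2% with only the 2 groups in the fit, 39.9% with the block and 35.5% with an equal sum. Low read numbers, as for Klf15 in neonates (13 to 39), limit what can be told between libraries.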
